A study of Mus musculus with 11 samples.

Results

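The cells described here are the endothelial cells of blood vessels in the mouse colon mucosa that the authors' annotation leaves without a further name, as distinct from the venous cells they marked by Selp and Sele and from the lymphatic endothelium. They were chosen by that label in the deposited cell table (endothelium with no marker name in either further field), and they number 990 of 55603 cells in 11 libraries. The same table holds 330 venous and 807 lymphatic endothelial cells. Droplet single-cell RNA-seq was used, in which each captured transcript is counted once by its unique molecular identifier (UMI). The study followed colitis caused by dextran sulfate sodium (DSS), a detergent-like polymer that strips the colon epithelium.

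Wild-type mice of about 2 months gave 1 uninjured library and 9 DSS libraries. The DSS mice drank 3% DSS for 6 days and were sampled at 9 times counted from its start, on days 6, 7 and 9, on days 11 and 12, and on days 16, 18, 19 and 23. The last library came from Il10-/- mice of about 10 months with colitis, which were given no DSS and lack the anti-inflammatory cytokine IL-10. Every library was a pool, of 3 mice for days 7, 11 and 18 and of 8 mice for the others, so each condition has 1 library and no replicate. In all groups the muscle layer with its myenteric plexus was peeled away, the mucosa was digested with Liberase and dying cells were removed. Cells of days 7, 11 and 18 were run fresh and carry the batch label C, and those of the other libraries were frozen first and have no such label in their records. Storage, pool size and batch therefore cannot be told apart.

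Blood vessels of the colon run from arterioles through a fenestrated capillary bed around the crypts to collecting venules. Arterial endothelium is known for Notch signalling and the gap junction genes Gja5 and Gja4, and capillary endothelium for lipid handling genes such as Cd36 and Gpihbp1. Tip cells lead new sprouts, respond to VEGF and are known for Apln, Esm1, Dll4 and basement membrane collagen. Venules carry the adhesion molecules, Selp and Sele among them, through which leukocytes enter tissue.

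The number of these cells per library ran from 18 on day 6 to 356 on day 7, with 39 in the uninjured and 47 in the Il10-/- library. Their summed UMIs ran from 55809 to 3054491, and the median per cell was 1769 to 2503.5 UMIs in the frozen libraries and 4188.5 to 5718 in the fresh ones. Mitochondrial genes took 5.06% to 19.1% of the UMIs. In all, 18 of the 990 cells had a barcode that also occurs in another of the libraries, and no barcode was shared between cells of this type. Values below are UMIs of the summed cells of a library scaled to a common total (CPM), which count 3' tags and are not scaled by gene length.

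The cells carried the genes that define endothelium. All 12 pan-endothelial genes were present, a median of 8 of them per cell, and 892 of 990 cells had at least 3. Pecam1, an adhesion protein of endothelial junctions, had 1361 CPM over all libraries against 3.82 in fibroblasts. Cdh5, the cadherin of those junctions, had 831 against 1.65, and Kdr, the main VEGF receptor, had 431 against 3.02. Sox17, a transcription factor of arterial and blood endothelium, had 197 against 0.222. The 98 cells with fewer than 3 of the genes were shallow, with a median of 762.5 UMIs.

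Some RNA of other cells came with them. The summed level of 5 neutrophil genes was 0 CPM in the uninjured library, then 38998 at day 7 and 13414 at day 11, 157 to 7605 for the other DSS days and 25869 for Il10-/-. In fibroblasts the same sum was 2.99 CPM before injury and 197.8 to 4652 under DSS. S100a8, a calcium-binding protein of neutrophils, had a UMI in 70.5% of these cells on day 7 (median 5718 UMIs per cell) and in 78.2% of the fibroblasts of that library (median 10610.0 UMIs), so the share lay below that of a cell type without the gene. In 65 cells the neutrophil genes took over 2% of the UMIs, 44 of these cells were on day 7, and 64 of the 65 also had at least 3 pan-endothelial genes. Their median was 13311 UMIs against 3349 in the other cells. More than 3 lymphatic genes were seen in 28 cells. No doublet caller was run, and a narrower selection of 820 cells without these 3 kinds of cell was analysed beside the full one. There the neutrophil sum was 710 CPM at day 7, 1465 at day 11 and 797 for Il10-/-. Only 1 cell of the Il10-/- library was over 2%.

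Among blood endothelial cells, the share that was not venous was higher late in the course than early. In the order of the 9 DSS days it was 66.7%, 72.5%, 69.7%, 70.6%, 76.4%, 83.9%, 75.0%, 74.0% and 86.8%. The uninjured library had 90.7% (95% exact interval 77.9% to 97.4%) and the Il10-/- library 87.0% (75.1% to 94.6%), both above all 9 DSS libraries. Over the 9 DSS days the share followed the day with a Spearman rho of 0.80 (exact permutation, two-sided p = 0.0138, adjusted over 2 shares 0.0277) and a Pearson r of 0.78 (exact permutation p = 0.0115, adjusted 0.0230). Without the 2 days farthest from the middle of the course, rho was 0.79 with an adjusted exact permutation p of 0.0960 and r was 0.74 (adjusted exact permutation p = 0.109), so the relation no longer passed. With 1 library left out, the adjusted exact permutation p of rho missed the threshold of 0.05 for each of days 6, 7, 9, 11 and 23 (0.0559 to 0.115). Within the 6 libraries with no batch label rho was 0.83 (exact permutation p = 0.0583) and r 0.83 (adjusted exact permutation p = 0.0458), and batch C holds only 3 libraries.

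As a share of all captured cells, the type ran from 0.500% on day 9 to 4.70% on day 7, with 2.14% (1.53% to 2.92%) in the uninjured and 0.806% in the Il10-/- library. The day 7 library stood above the others, and the remaining DSS libraries lay between 0.500% and 1.80%. This share showed no relation to the day over the 9 libraries (rho 0.20, exact permutation p = 0.613, and r -0.16, exact permutation p = 0.746). Within the 6 libraries with no batch label rho was 0.89 (exact permutation p = 0.0333, adjusted 0.0583) and r 0.92 (exact permutation p = 0.00972, adjusted 0.0194). Intervals cover counting error only, and shares of captured cells depend on how many cells of every other type were recovered.

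**Figure D1:**
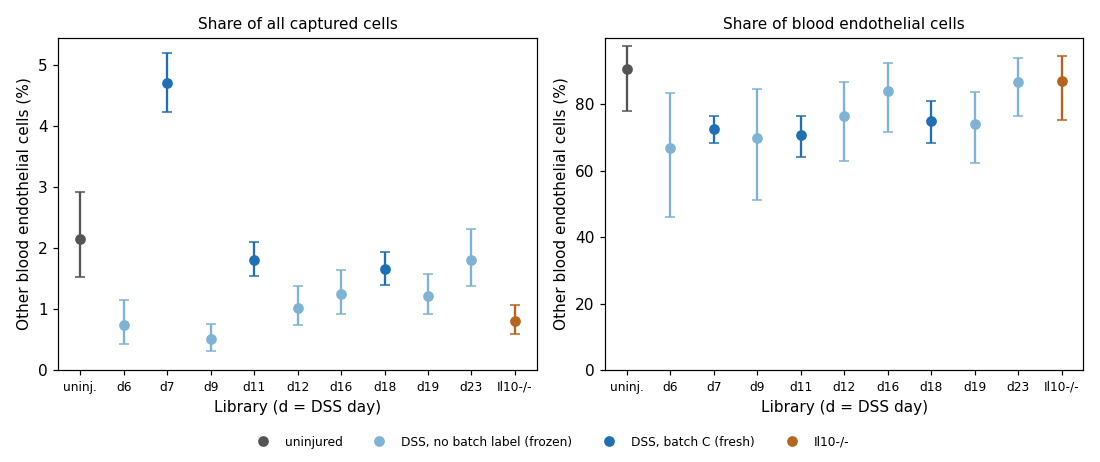
Other blood endothelial cells in each library, as a percentage of all captured cells (left) and of blood endothelial cells, venous ones included (right). Points are single libraries coloured by group, and bars are 95% exact binomial intervals for counting error. The day 7 library reaches 4.70% on the left, and on the right the uninjured (90.7%) and Il10-/- (87.0%) libraries lie above the DSS libraries, which run from 66.7% to 86.8%.

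Expression within the cells was then followed over the DSS course in the 8 libraries with at least 20 cells (days 7 to 23, day 6 with 18 cells left out), with day and batch label in the model. Of 3187 genes tested, 34 rose with day (1.07%) and 44 fell (1.38%) at an adjusted p under 0.05 (edgeR's quasi-likelihood test, Benjamini-Hochberg), with 413 at an unadjusted p under 0.05. Slopes are given in log2 units per 10 days with their standard error. Of the rising genes, 26 had a level in these cells at least as high as in all other cells of the DSS libraries, and 8 of the falling genes did. Leaving out day 18 reduced the calls to 5 rising and 3 falling genes, while 31 of 31 rising and 40 of 40 falling genes that could still be tested kept their sign. Beside each gene stand the settings in which it did not pass, among them the fit to the 5 libraries with no batch label (without batch C) and the fit to cells reduced to 1000 UMIs each (thinned cells). In a bulk sum of this kind, fewer expressing cells and less RNA per cell cannot be told apart.

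Rgcc, a regulator of the cell cycle and a marker of capillary endothelium (chromosome 14, 79288756 to 79301645, minus strand, mm10), rose with day, also without day 18 and within the libraries with no batch label. It had 739.6 CPM in the uninjured library, then 216, 324, 204, 346, 389, 503, 431, 863 and 1076 CPM on the 9 DSS days in order, and 495 in the Il10-/- library. Days 6 and 9 were lowest, and only days 19 and 23 lay above the uninjured library. Its slope was 1.09 ± 0.24 (edgeR adjusted p = 0.0169), 1.503 without day 18 (adjusted p = 0.0155) and 1.63 in the 5 libraries with no batch label (adjusted p = 9.64e-05). It did not pass without day 9 or day 23 or in thinned cells (slopes 0.73 to 0.95, adjusted p from 0.0951 to 0.202). After each cell was thinned to 1000 UMIs, Rgcc was seen in 42.9% of uninjured cells and in 2.06% of fibroblasts. In the fresh libraries of days 7, 11 and 18 it was seen in 18.9%, 17.4% and 25% of cells. In the frozen libraries of days 6, 9, 12, 16, 19 and 23 it was seen in 7.14%, 11.1%, 29%, 44.4%, 51% and 40.7%. Days 6 and 9 rest on 14 and 18 thinned cells. Without thinning the Rgcc share was 47.5% over all libraries, against 9.75% of fibroblasts. In fibroblasts its level was 13.4 to 56.8 CPM over the DSS days.

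The 250 bases before the Rgcc start site are shown because they hold the sequence CCACCC (the core bound by KLF factors, searched on both strands) at 3 places, in capitals. The promoter lies at chr14:79301636-79301885 of GRCm38.p6, minus strand, and is given from RefSeq.
Rgcc promoter: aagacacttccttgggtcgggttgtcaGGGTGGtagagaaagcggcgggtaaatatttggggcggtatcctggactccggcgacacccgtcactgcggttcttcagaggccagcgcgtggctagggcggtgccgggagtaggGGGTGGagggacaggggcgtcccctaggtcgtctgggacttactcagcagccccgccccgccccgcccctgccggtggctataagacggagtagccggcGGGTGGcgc
A CCACCC was found in such windows of 12 of the 22 rising genes of the 26 above that matched the table (54.5%), of 4 of 7 matched falling genes (57.1%) and of 38.1% of 2549 matched genes tested. A match describes letters in the window and is no evidence of binding.

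Klf2, a flow-responsive transcription factor that keeps endothelium quiet, had 4796 CPM in the uninjured library and 1693, 1447, 1301, 1459, 1758, 2579, 1769.7, 1712 and 4078 on the 9 DSS days in order. The uninjured library was above every DSS library, with day 23 next. Its slope was 0.73 ± 0.21 (edgeR adjusted p = 0.0794) in all 8 libraries and 1 (adjusted p = 0.0118) in the 5 with no batch label. Fibroblasts had 2274 CPM uninjured and 559 to 1779.7 over the DSS days.

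A lipid transfer gene and a gene of caveolae were called as rising, as Rgcc was. Pltp, a phospholipid transfer protein, had 324 CPM uninjured and 180.1, 158, 113, 133, 121, 229, 337, 369 and 425 on the 9 DSS days in order. Days 16 to 23 all lay above days 6 to 12, and the slope was 1.27 ± 0.23 (adjusted p = 0.00453). Fibroblasts showed a like course for Pltp, with 47.3, 45.9, 52.9, 79, 83.4, 197, 191, 201 and 210.0 CPM on the same days. Cavin2, a coat protein of caveolae, had 901 CPM uninjured and 144, 343, 147, 288, 316, 293, 778, 432 and 524 on the DSS days, every one below the uninjured library, with a slope of 1.08 ± 0.22 (adjusted p = 0.00914). Fibroblasts had 25.3 to 42.5 CPM of Cavin2. Lymphatic endothelial cells had more Cavin2, with 2077 CPM uninjured and 623 to 1932 over the DSS days. There too the uninjured library was the highest and day 18 the highest DSS day. Pltp and Cavin2 were the 2 called genes of 10 tested on the lipid transport list of 15. The median slope of that list was 0.36 against -0.0052 over all genes tested. The caveola genes Cav1 and Cavin1 had slopes of 0.34 and -0.019 (adjusted p = 0.562 and 0.997). Pltp did not pass without day 18 (slope 1.31, adjusted p = 0.115). Cavin2 did not pass without day 18 or day 23, with no batch term or in thinned cells (slopes 0.76 to 1.14, adjusted p from 0.053 to 0.248).

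Gas6, the ligand of the TAM receptor kinases, had 324 CPM uninjured and 108, 61.9, 67.9, 42.6, 146, 165, 191, 202 and 314 on the DSS days in order, with a slope of 1.42 ± 0.27 (adjusted p = 0.00624). It was lowest on days 7 and 11 and came nearest to the uninjured level on day 23. Fibroblasts had 86.4 CPM uninjured and 168 to 557 over the DSS days, highest on day 12. Gas6 did not pass without day 18 or day 23 or in thinned cells (slopes 0.94 to 1.47, adjusted p from 0.053 to 0.298). Jam3, a junctional adhesion molecule, had 162 CPM uninjured and 22.6 to 151 over the DSS days, with a slope of 1.13 ± 0.29 (adjusted p = 0.0435). Jam3 did not pass without any 1 of days 9, 12, 16, 18, 19 and 23, in the narrower selection, with DESeq2 or on the rank of the day (slopes 0.99 to 1.29, adjusted p from 0.0582 to 0.296). Ccnd1, the cyclin of G1 phase, had 116 CPM uninjured and 162, 50.7, 79.2, 105, 105, 183, 206, 118 and 175 on the DSS days, with a slope of 1.25 ± 0.27 (adjusted p = 0.0145). Ccnd1 did not pass without day 7 or day 18, without batch C, with no batch term or with day 6 included (slopes 0.64 to 1.15, adjusted p from 0.0503 to 0.432).

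Among the other rising genes chosen by the rule on slope size, Ankrd37, a target of hypoxia-inducible factor, had 22.6 to 144 CPM over the DSS days (slope 1.55 ± 0.28, adjusted p = 0.00453). Ankrd37 did not pass without day 7 or day 18, without batch C or with no batch term (slopes 1.16 to 1.37, adjusted p from 0.0503 to 0.315). Arhgap18, a GTPase-activating protein, had 11.3 to 152 CPM (slope 1.42 ± 0.27, adjusted p = 0.00556), highest on day 18. Arhgap18 did not pass without day 7 (slope 1.35, adjusted p = 0.0739). Ptprr, a tyrosine phosphatase, had 312 CPM uninjured and 26 to 105 on the DSS days (slope 1.23, adjusted p = 0.0319), so that every DSS library lay below the uninjured one. Ptprr did not pass without any 1 of days 7, 11, 18, 19 and 23, without batch C or in the narrower selection (slopes 0.75 to 1.33, adjusted p from 0.0686 to 0.627). Tspan2, a tetraspanin, had a slope of 1.08 (adjusted p = 0.0435). Tspan2 did not pass without any 1 of days 7, 9, 11, 18 and 19, without batch C, with no batch term, in thinned cells, in the narrower selection or with DESeq2 (slopes 0.43 to 1.08, adjusted p from 0.0785 to 0.68). Ppp1r16b, a regulatory subunit of protein phosphatase 1 found in endothelium, had a slope of 1.06 (adjusted p = 0.0459). It passed in none of the 8 fits that leave out 1 library (adjusted p from 0.0651 to 0.229).

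Dbp, a transcription factor driven by the circadian clock, had the largest slope of the 26 rising genes. It had 312 CPM in the uninjured library, 36, 8.89, 22.6, 10.9, 89.1, 64, 28.1, 146 and 204 on the DSS days in order, and 265 in the Il10-/- library, with a slope of 1.58 ± 0.36 (adjusted p = 0.0229). The call was lost without any 1 of days 9, 18, 19 and 23, with no batch term or in the narrower selection (slopes 1.40 to 2.74, adjusted p from 0.0596 to 0.298). The 3 fresh libraries were at 8.89 to 28.1 CPM, and the frozen ones of days 12 to 23 at 64.0 to 203.6. Fibroblasts had a like course, with 360.1 CPM uninjured and 33.8, 4.21, 27.9, 13.1, 63.4, 132, 9.17, 91.1 and 172 on the same DSS days. It was the 1 called gene of 7 tested on the clock list of 17. The part of the hour of sampling, not given in the sources used here, was not tested.

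**Figure D2:**
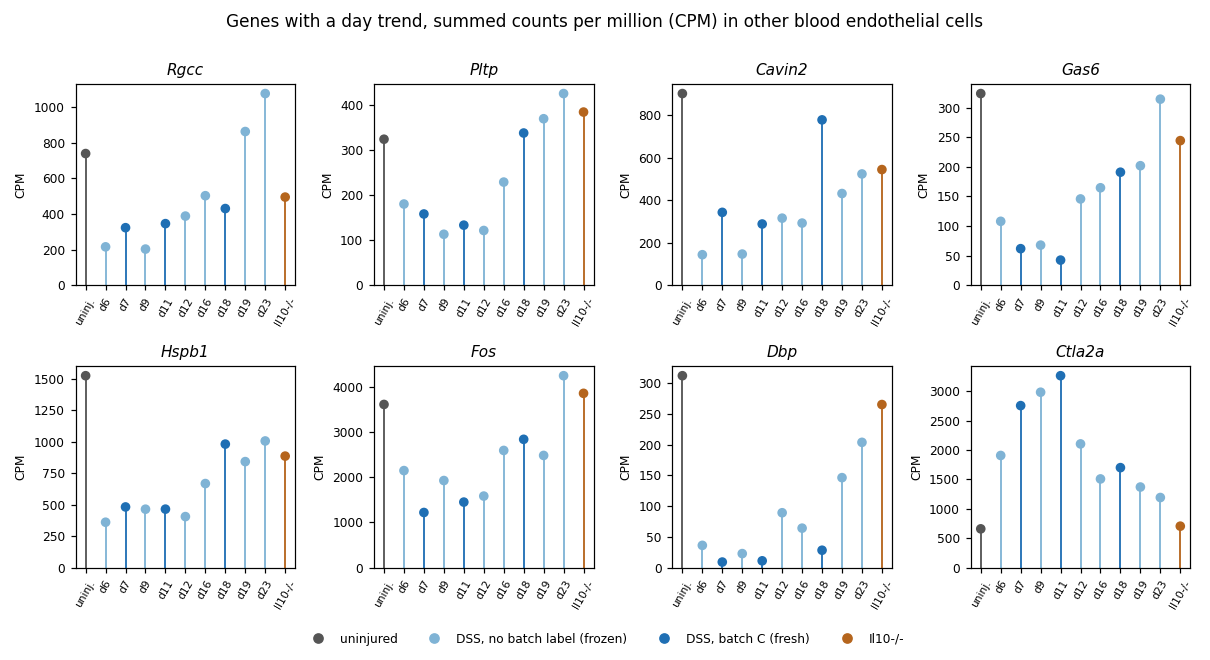
CPM of 8 genes with a day trend in other blood endothelial cells, 1 point per library on a linear axis from 0, coloured by group. Rgcc, Pltp, Gas6, Hspb1 and Fos are lower on days 6 to 12 than on every later day, Cavin2 is highest of the DSS days on day 18 and Dbp on day 23, and Ctla2a runs the other way, with 3268 CPM on day 11 and 659 in the uninjured library.

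Immediate early and heat shock genes, which respond to stress within minutes and also to tissue dissociation, were partly called. Of 17 tested 4 rose and none fell, 16 of 17 slopes were positive and the median slope was 0.54 against -0.0052 over all genes tested. Hspb1, a small heat shock chaperone, had 1525 CPM uninjured and 360.2, 482, 464, 464, 405, 668, 981, 842 and 1006 on the DSS days in order, with a slope of 0.95 ± 0.18 (adjusted p = 0.00644). Days 16 to 23 were above days 6 to 12, and the uninjured library was above all. Fos, a subunit of the AP-1 factor, had 3606 CPM uninjured and 2143, 1216, 1923, 1446, 1579, 2588, 2834, 2478 and 4241 on the DSS days (slope 0.94 ± 0.17, adjusted p = 0.00453). Jun, its partner, had a slope of 0.92 (adjusted p = 0.0144) and Ier2, an early response gene, of 0.96 (adjusted p = 0.0177). Fos did not pass without day 18 or day 23 (slopes of 0.85, adjusted p from 0.0659 to 0.115). Hspb1 did not pass without day 18 (slope 0.86, adjusted p = 0.165). Jun did not pass without day 18 or day 23, with no batch term, in thinned cells or with day 6 included (slopes 0.58 to 1.06, adjusted p from 0.0704 to 0.453). Ier2 did not pass without any 1 of days 9, 18 and 23 or in thinned cells (slopes 0.71 to 1.17, adjusted p from 0.0881 to 0.159). Fibroblasts had a like course for Fos, with 5709 CPM uninjured and 2660.4, 3539, 2499.6, 3141, 3358, 4196, 4075, 4475 and 5304 on the DSS days in order, so that days 16 to 23 lay above days 6 to 12 there too. Their Hspb1 ran from 84.5 to 239 CPM with no such split. Lymphatic endothelial cells did show the split for Hspb1, with 0 to 197 CPM on days 6 to 12 and 234 to 511 on days 16 to 23. Fos in the lymphatic cells ran from 2296 to 8769 CPM over the DSS days without it. The part of dissociation or storage in these values was not tested.

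The Hspb1 promoter (chr5:135887669-135887918, plus strand, GRCm38.p6, from RefSeq) is shown because it holds the heat shock element core GAANNTTC at 2 places, in capitals.
Hspb1 promoter: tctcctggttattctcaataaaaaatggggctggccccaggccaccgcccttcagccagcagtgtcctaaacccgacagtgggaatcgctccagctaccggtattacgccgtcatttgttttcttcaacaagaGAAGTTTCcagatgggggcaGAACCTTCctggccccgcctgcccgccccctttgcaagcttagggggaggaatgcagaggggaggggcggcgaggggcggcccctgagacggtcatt
The core, which reads the same on both strands, was found in 3 of 22 matched rising genes (13.6%) and in 6.43% of matched genes tested.

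Socs3, a feedback inhibitor of cytokine receptors, had 670.2 CPM uninjured and 270.1, 560.3, 339, 559, 364, 512, 662, 613 and 1443 on the DSS days, with a slope of 1.01 ± 0.25 (adjusted p = 0.0475), 1.39 without day 18 (adjusted p = 0.0155). Day 23 alone stood above the uninjured level. Socs3 did not pass without any 1 of days 9, 12, 16, 19 and 23, with no batch term, in thinned cells, in the narrower selection or on the rank of the day (slopes 0.47 to 1.04, adjusted p from 0.0596 to 0.528). Hes1, a target of Notch, had 381 CPM uninjured and 486, 79, 204, 122, 227, 421, 199, 522 and 448 on the DSS days (slope 1.04 ± 0.21, adjusted p = 0.01). Days 7, 11 and 18, the fresh libraries, were the lowest together with day 9. Fibroblasts had 264, 65.9, 177, 77.8, 334, 419.8, 159, 443 and 369 CPM of Hes1 on the same days, also lowest in the 3 fresh libraries. On the Notch list of 13 genes, Hes1 was the 1 gene of 9 tested that was called. Hes1 did not pass without day 7 or day 18, without batch C, with no batch term or with day 6 included (slopes 0.6 to 1.54, adjusted p from 0.0504 to 0.252).

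Of the 8 falling genes with a level at or above that of other cells, Ctla2a had the lowest edgeR adjusted p. It encodes an inhibitor of cysteine proteases (chromosome 13, 60934155 to 60936625, minus strand, mm10). It had 659 CPM uninjured, 1909, 2758, 2987, 3268, 2106, 1509, 1702, 1371 and 1193 on the 9 DSS days in order, and 705 in the Il10-/- library. Every DSS library was above the uninjured and the Il10-/- library, and the slope was -0.88 ± 0.18 (adjusted p = 0.00932). Fibroblasts had 3.04 to 50.4 CPM. Lymphatic endothelial cells had 457 CPM uninjured, 545 to 1098 on days 6 to 18, and 313 and 341 on days 19 and 23. Ctla2a did not pass without day 18 or day 23 or in thinned cells (slopes -0.94 to -0.53, adjusted p from 0.0555 to 0.245). Ctla2a has a close paralogue, Ctla2b, and reads of the pair may be split between them.

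Col18a1, a collagen of vessel basement membranes and the source of endostatin (chromosome 10, 77052178 to 77166548, minus strand, mm10), had 34.7 CPM uninjured (3 UMIs), 468, 402, 429.9, 563, 526, 256, 279.9, 181 and 139.6 on the DSS days in order, and 55.8 in the Il10-/- library. All DSS libraries were above both others, and the slope was -1.09 ± 0.26 (adjusted p = 0.0281). Fibroblasts had 62.2 CPM uninjured and 207 to 668 over the DSS days. Col18a1 did not pass without any 1 of days 9, 16, 18, 19 and 23, with no batch term, in thinned cells or on the rank of the day (slopes -1.17 to -0.4, adjusted p from 0.0533 to 0.763). It was the 1 of 14 basement membrane genes to fall, and none rose, with a median slope of 0.10.

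Il6, an inflammatory cytokine, had 104 CPM uninjured and 234, 225, 679, 237, 583, 448, 114, 501 and 279 on the DSS days (slope -0.87 ± 0.21, adjusted p = 0.0281). The day 7, 11 and 18 values of 225, 237 and 114 CPM were below those of most frozen libraries, so the slope describes days within each batch. Fibroblasts had 1573, 354, 917, 279, 805, 594, 118, 430.2 and 488 CPM on the same days, with the highest value on day 6. Il6 did not pass without any 1 of days 9, 18 and 23, without batch C, with no batch term, in thinned cells, on the rank of the day or with day 6 included (slopes -0.93 to -0.23, adjusted p from 0.0543 to 0.965). Il6 was the 1 chemokine and cytokine gene of 8 tested that was called. Its promoter (chr5:30012864-30013113, plus strand, GRCm38.p6, from RefSeq) is shown because it carries, in capitals, a match to the NF-kB core motif, searched on both strands.
Il6 promoter: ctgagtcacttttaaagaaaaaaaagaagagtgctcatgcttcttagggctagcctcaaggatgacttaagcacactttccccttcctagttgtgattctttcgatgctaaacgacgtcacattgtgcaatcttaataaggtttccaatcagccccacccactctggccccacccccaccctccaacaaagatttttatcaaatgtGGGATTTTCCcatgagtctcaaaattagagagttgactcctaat
That core was found in 1 of 7 matched falling genes (14.3%), in none of 22 matched rising genes and in 1.77% of matched genes tested.

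Il4ra, the receptor chain shared by IL-4 and IL-13, had 57.8 CPM uninjured and 48.7 to 144 over the DSS days (slope -1.001 ± 0.26, adjusted p = 0.0435). Il4ra did not pass without any 1 of days 7, 11, 12, 16, 18, 19 and 23, without batch C, with no batch term, in the narrower selection or with DESeq2 (slopes -1.16 to -0.7, adjusted p from 0.053 to 0.517). The other 4 were genes of ribosomes. Mrpl33, of the mitochondrial ribosome, had a slope of -0.94 (adjusted p = 0.0144). Rpl39, Rplp1 and Rps28, of the cytosolic ribosome, had slopes of -0.76, -0.71 and -0.7 (adjusted p = 0.0281, 0.0369 and 0.0236). Of the 8 fits that leave out 1 library, Mrpl33 was lost in 2 (adjusted p up to 0.165), Rpl39 in 5 (0.227), Rplp1 in 6 (0.281) and Rps28 in 5 (0.165), day 18 among the libraries left out in each. Rps28 was at 1382, 1230 and 905 CPM in the fresh libraries and at 5023 on day 9, and ribosomal protein genes have many near-identical copies among which reads may be split. The remaining 36 falling genes were lower in these cells than in other cells, among them Lcn2, Il1r2, Retnlg and S100a9 of neutrophils, whose summed course is given above. Likewise 8 rising genes were lower here than elsewhere, Zg16 and Muc2 of goblet cells and Iglc1 of plasma cells among them.

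In the narrower selection of 820 cells, 19 genes rose (0.624%) and 12 fell (0.394%), of which 18 and 9 were called in the full selection as well. All 33 rising and 22 falling genes that could be tested there kept their sign. In the 5 libraries with no batch label, 28 rose (1.3%) and 13 fell (0.603%), and 12 and 6 of them were shared. A squared day term, which would show genes that peak or dip within the course, was called in 0 rising and 1 falling gene (0% and 0.0314%, edgeR), with 206 at an unadjusted p under 0.05. The 1 gene was Sprr2a3, an epithelial gene lower here than in other cells. In simulated data with known changes, a day slope of 1 was recovered in 21.8% of changed genes and a slope of 2 in 92.5%. For the squared day term a change of 2 was recovered in 6.38% and of 4 in 92.8%.

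None of the 20 arterial genes tested of 22 rose or fell with day (0 of 20, 2 at an unadjusted p under 0.05, edgeR), 10 slopes were positive and the median was 0.0014. Gja5, connexin 40 of arterial endothelium (chromosome 3, 96904693 to 97077416, plus strand, mm10), had 116 CPM uninjured, 54, 52, 204, 75.3, 251, 64, 94.9, 41.8 and 58.2 on the DSS days in order, and 69.8 in the Il10-/- library. Days 9 and 12 were the highest, above the uninjured library, and the slope was -0.46 ± 0.56 (adjusted p = 0.861). In the 5 libraries with no batch label it was -1.82 (adjusted p = 0.00971). Sema3g, a semaphorin secreted by arterial cells, had 254 CPM uninjured and 306, 142, 204, 159.6, 397, 338, 149.9, 132 and 209 on the DSS days (slope -0.27 ± 0.27, adjusted p = 0.805). Its highest values fell on days 12 and 16, and the uninjured value lay within the DSS range.

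Among 16 capillary genes tested of 20, Rgcc rose and none fell. The other slopes did not pass, though 14 of 16 were positive and the median was 0.48 against -0.0052 over all genes tested. Gpihbp1, which anchors lipoprotein lipase to capillaries, had 254 CPM uninjured and 54, 304, 204, 244, 170.1, 293, 542, 327 and 366 on the DSS days (slope 0.77 ± 0.21, adjusted p = 0.0592). Day 6 was lowest and day 18 highest. Kdr had 532 CPM uninjured and 414, 322, 385, 467, 664, 887, 568, 689 and 657 on the DSS days (slope 0.49 ± 0.21, adjusted p = 0.339). Cd36, a fatty acid transporter, had 335 CPM uninjured and 162, 732, 272, 141, 121, 302, 371, 383 and 384 on the DSS days, with day 7 above all others and a slope of -0.021 ± 0.66 (adjusted p = 0.997). Plvap, which forms the diaphragms of fenestrae, had 1976 CPM uninjured and 1819 to 3560.2 over the DSS days (slope 0.3, adjusted p = 0.584).

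None of the 17 tip cell genes tested of 22 was called (0 of 17, 5 at an unadjusted p under 0.05, edgeR), and the median slope was 0.20. Esm1, a proteoglycan of sprouting endothelium (chromosome 13, 113209659 to 113218098, plus strand, mm10), had 46.2 CPM uninjured, 36, 61.9, 0, 79.8, 64.8, 101, 99.6, 195 and 366 on the DSS days in order, and 251 in the Il10-/- library. Days 19 and 23 and the Il10-/- library were the highest. The slope was 1.53 ± 0.43 (adjusted p = 0.134) in the 8 libraries and 2.84 (adjusted p = 1.53e-05) in the 5 with no batch label. Apln, a peptide secreted by tip cells (chromosome X, 48025146 to 48034853, minus strand, mm10), had 0 CPM uninjured, 180.1, 45.8, 0, 80.7, 56.7, 9.15, 193, 0 and 58.2 on the DSS days, and 0 in the Il10-/- library. Days 6 and 18 were the highest, on 10 and 165 UMIs, and days 9 and 19 were at 0. Esm1 had 2 and 85 UMIs on days 6 and 18, and 63 on day 23. The highest values of Apln and Esm1 thus fell on different days, but those of frozen libraries rest on few UMIs.

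Pgf, a VEGF family ligand, had UMIs on days 6, 7, 11 and 18 only, at 108, 19.4, 11.8 and 116 CPM (6, 59, 13 and 99 UMIs). Angpt2, the antagonist of Tie2 released by activated vessels, had 0 CPM uninjured and 6.96 to 121 over the DSS days, highest on day 12. Kcne3, a potassium channel subunit on the tip cell list, had 150.2 CPM uninjured (13 UMIs) and 5.82 to 45.7 over the DSS days. A gene at 0 in the uninjured library could have been present at up to 3 UMIs of 86967. The same limit holds for a 0 in a frozen DSS library, such as day 9 with 88902 UMIs.

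**Figure D3:**
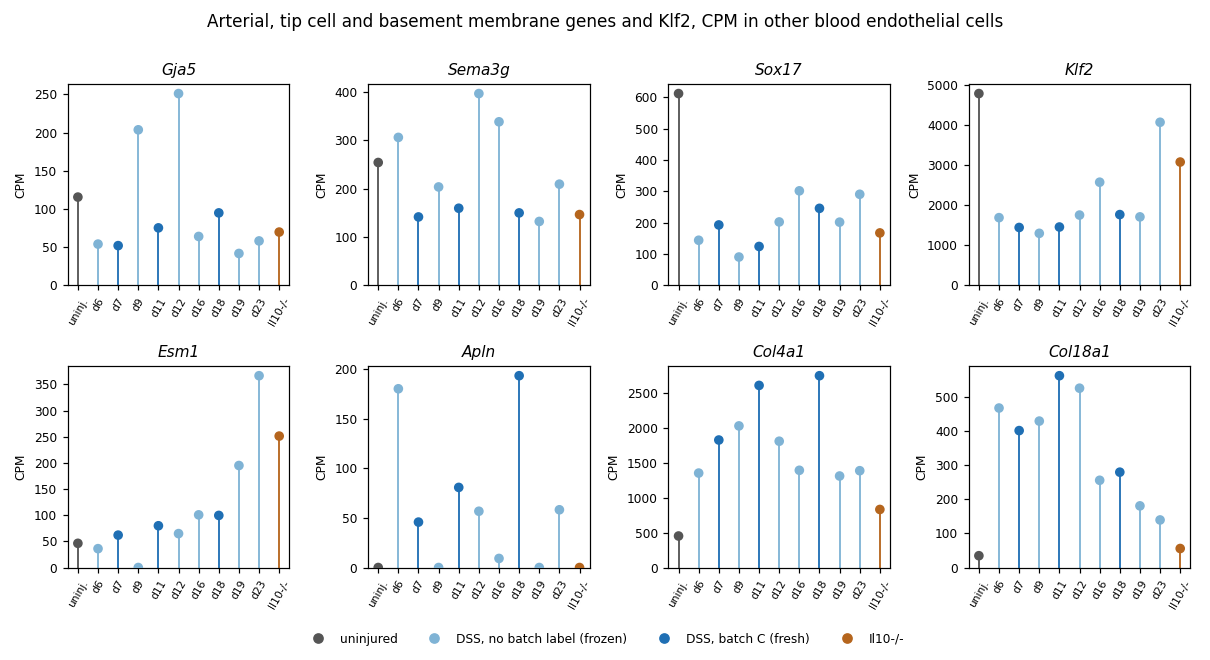
CPM of arterial (Gja5, Sema3g, Sox17), flow-related (Klf2), tip cell (Esm1, Apln) and basement membrane (Col4a1, Col18a1) genes in each library, on linear axes from 0. Sox17 and Klf2 are highest in the uninjured library, Col4a1 and Col18a1 are lowest there, and Esm1 reaches 366 CPM on day 23 while Apln is at 0 on days 9 and 19.

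Few genes of the wider signalling lists were called. On the VEGF and angiopoietin list 0 of 15 genes tested were called (5 at an unadjusted p under 0.05, edgeR), and on the BMP and TGF-beta list 0 of 9 (2 at an unadjusted p under 0.05, edgeR). Id1, a BMP target, had a slope of 0.82 ± 0.22 (adjusted p = 0.0632), and 1.09 in the libraries with no batch label (adjusted p = 0.0166). On the list of flow and quiescence genes 0 of 11 were called (3 at an unadjusted p under 0.05, edgeR), and on the adhesion list 0 of 11 (1 at an unadjusted p under 0.05, edgeR). Of 11 genes of NF-kB targets and feedback, Socs3 rose, and Tnfaip3, which ends NF-kB signalling, and Tnfaip2 fell with slopes of -0.9 and -0.95 (adjusted p = 0.0417 and 0.0272). In the narrower selection none of the 3 was called, at 0.996, -0.72 and -0.47 (adjusted p = 0.0596, 0.168 and 0.49). Of 11 genes of matrix remodelling tested, S100a6 fell with a slope of -0.72 (adjusted p = 0.0303), and -0.57 in the narrower selection (adjusted p = 0.199). Of the 8 fits that leave out 1 library, Tnfaip3 was lost in 6, Tnfaip2 in 4 and S100a6 in 5 (highest adjusted p 0.256, 0.36 and 0.264). Tnfaip3, Tnfaip2 and S100a6 are lower in these cells than in other cells, and the neutrophil sum was highest on days 7 and 11, early in the course. The part of neutrophil RNA in these 3 was not tested.

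Against the DSS libraries the 1 uninjured library is described without a test. Among 9181 genes that reached 20 counts in some library, 41 (0.447%) lay at least 2-fold above all 9 DSS libraries and 128 (1.39%) at least 2-fold below. A gene may reach 20 counts in a DSS library alone, and the uninjured library held 86967 UMIs against 3054491 on day 7. The counts of genes above and below are therefore not on equal terms. Basement membrane genes stood lower: 5 of 14 compared were below, and none above. Col4a1, the main chain of basement membrane collagen, had 451 CPM uninjured (39 UMIs), 1351, 1823, 2025, 2604, 1806, 1390.3, 2743, 1309 and 1384 on the DSS days, and 830.2 in the Il10-/- library. Days 11 and 18 were the highest, and the lowest DSS library was more than 2-fold above the uninjured one. Fibroblasts had 279 CPM of Col4a1 uninjured and 514 to 1305 over the DSS days.

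Col15a1, a collagen that links basement membrane to stroma, had 139 CPM uninjured and 581 to 1154 over the DSS days, with 98.6 and 66.9 to 304 in fibroblasts. Lamb1, a laminin chain, had 46.2 CPM uninjured (4 UMIs) and 165 to 402 over the DSS days. Nid1, nidogen, which links laminin to collagen, had 46.2 CPM uninjured (4 UMIs) and 124 to 260.2 over the DSS days. In fibroblasts Nid1 had 589 CPM uninjured and 311 to 479 over the DSS days, so there the uninjured library was the highest.

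Some adhesion and chemokine genes lay below as well, 2 of 12 compared on each list, with 1 of 14 genes of NF-kB targets and feedback, and none of these lay above. Of 22 interferon genes none lay below or above, and Irf1, a transcription factor of that response, had 578 CPM uninjured against a DSS median of 343. Icam1, a leukocyte adhesion receptor, had 46.2 CPM uninjured (4 UMIs) and 156 to 520.4 over the DSS days. Lrg1, a modifier of TGF-beta signalling, had 23.1 CPM uninjured (2 UMIs) and 119 to 362 over the DSS days. Cxcl2, a chemokine for neutrophils, had no UMI in the uninjured library and 103 to 1257 CPM over the DSS days, which at the median is at least 10.8-fold higher when 0 is set at 3 UMIs. Cxcl2 is also made by neutrophils, and fibroblasts had 13.4 CPM uninjured and 160.0 to 1120.3 over the DSS days. Sox4, a transcription factor, Pdgfa, a growth factor for mural and stromal cells, and Adgrl2, an adhesion receptor, had 1 UMI each in the uninjured library and 54 to 283, 48.7 to 283 and 62.6 to 237 CPM over the DSS days. Snrnp27 and Exoc5, of splicing and of the exocyst, also had 1 UMI each. A level resting on 1 UMI has a wide counting error, so the 2-fold gap to the lowest DSS library may lie within it for these genes.

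Arterial genes were among those above. Sox17 had 612 CPM uninjured (53 UMIs), 144, 193, 90.5, 124, 202, 302, 246, 202 and 291 on the DSS days, and 167 in the Il10-/- library. All DSS libraries were at least 2-fold lower, with day 9 lowest. Bmx, a tyrosine kinase of arterial endothelium, had 162 CPM uninjured (14 UMIs) and 11.6 to 79.2 over the DSS days. These were the 2 of 21 arterial genes compared that lay above, and none lay below. Cytl1, a secreted cytokine-like protein, had 1121 CPM uninjured (97 UMIs), 216, 106, 67.9, 11.8, 48.6, 128, 362, 20.9 and 29.1 on the DSS days, and 167 in the Il10-/- library, with days 6 and 18 the highest of the DSS days. It was at most 0.676 CPM in the fibroblasts of any library. The others named by the rule had 4 to 27 UMIs in the uninjured library: Ptprr above, Hlf, a clock output factor, Kbtbd3, Tapbpl, a peptide-loading relative of tapasin, Egfl8, Plekhh3 and Cdkn2aip.

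The Il10-/- library was set beside the same uninjured library, again without a test. Among 1031 genes that reached 20 counts in either library, 51 were at least 4-fold higher (4.95%) and 5 at least 4-fold lower (0.485%). Chemokines known as interferon gamma targets were among the former. Cxcl9, a chemokine for T cells, had 181 UMIs (1263 CPM) against 0, at least 36.4-fold higher with 0 set at 3 UMIs, and 0 to 305 CPM over the DSS days. A Cxcl9 UMI was seen in 8.51% of the Il10-/- cells without thinning and in 4 of 38 thinned cells. The Cxcl9 ratio therefore rests on few cells. Fibroblasts of the Il10-/- library had 65.7 CPM of Cxcl9 and lymphatic cells 8.76. Over all libraries, without thinning, Cxcl9 was seen in 5.15% of the other blood endothelial cells and in 10% of the venous cells. Cxcl10, of the same family, had 92 UMIs against 0 (at least 18.5-fold), but 18 to 646 CPM over the DSS days. Ubd, a ubiquitin-like modifier, had 83 UMIs against 0 (at least 16.7-fold), with 579 CPM in these cells and 19.4 in fibroblasts of that library.

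Class II antigen presentation genes were higher too, 5 of 6 compared by at least 4-fold. Of 11 class I genes 10 were higher, but of these 1, Tap1, by at least 4-fold, and the median ratio was 1.91 against 1.09 over all genes compared. Tap1, the peptide transporter, had 272 CPM against 46.2, a ratio of 5.89-fold (95% exact interval 2.12 to 22.7). H2-T22, a class Ib molecule, was 4.68-fold (95% exact interval 1.65 to 18.2) higher. Cd74, the class II invariant chain, had 3363 CPM against 300.5, or 11.2-fold (95% exact interval 7.54 to 17.3), with 36 to 753 over the DSS days. H2-Aa, H2-Ab1 and H2-Eb1, class II chains, were 5.32-, 6.29- and 7.4-fold higher. Cd74 is abundant in B cells and macrophages, and it stood at 394 CPM in the fibroblasts of the Il10-/- library against 44.2 uninjured. Lymphatic endothelial cells of that library had 1788 CPM of Cd74 against 133 uninjured, and 688 against 41.5 of H2-Eb1. The higher class II level was thus not particular to the cells described. The summed level of 7 macrophage genes in the other blood endothelial cells was 474 CPM against 46.2, and that of 5 neutrophil genes 25869 against 0. In the narrower selection these sums were 105 and 797 CPM in the Il10-/- library. In that library 1 of the 47 cells had over 2% of its UMIs from neutrophil genes. In the narrower selection the class II sum was 6643 CPM in the Il10-/- library against 723 uninjured, and the class I sum 18754 against 9671. In all cells the Il10-/- sums were 5930 and 17162 CPM. The sum of 8 B cell and plasma cell genes was 3970 CPM against 1791 uninjured, and 4131 against 1667 in the narrower selection. The part of macrophage, neutrophil, B cell and plasma cell RNA in these ratios was not tested.

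Esm1 was 5.43-fold (95% exact interval 1.95 to 21) higher, Lrg1 9.06-fold (95% exact interval 2.3 to 78.2) and Metap2, an aminopeptidase, 4.63-fold (95% exact interval 1.4 to 24.1), each from 2 to 4 UMIs in the uninjured library. Cytl1 was lower, at 167 against 1121 CPM, a ratio of 0.149 (0.0913 to 0.235). It was the 1 lower gene that met the naming rule, and the other 4 were Fn1, Phgr1, Mt1 and Krt8. The libraries also differ in age, about 10 against about 2 months, and Xist, the RNA of the inactive X chromosome, had 27 UMIs in the Il10-/- cells and 0 in the cells of every other library. Il10 itself had 23 UMIs in the Il10-/- library and 0 in the uninjured one. Since 3' tags need not lie in the altered part of the gene, this checks nothing.

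The contrast with the venous cells is a description without a test, because the authors' clusters were cut from these same genes. Selp, the stored leukocyte selectin, had 161 CPM here against 4975 in the venous cells, Sele 17.6 against 933 and Ackr1, the chemokine receptor of venules, 7.44 against 1336. In turn 21 of 22 arterial and 17 of 20 capillary genes were higher here over the pooled libraries, as were 52.1% of 10788 genes with at least 20 counts in either type. Sema3g had 161 against 15.5 CPM, Cxcl12, a chemokine of arterial cells, 626 against 55, Gpihbp1 321 against 19.9, and Rgcc 390.4 against 19.6. Each of these 4 was higher here in 11 of 11 libraries. Capillary list genes that were higher in the venous cells were Aqp1, a water channel (442 against 1297 CPM), Cd200 (773 against 856) and Meox2 (6.25 against 46.1).

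**Figure D4:**
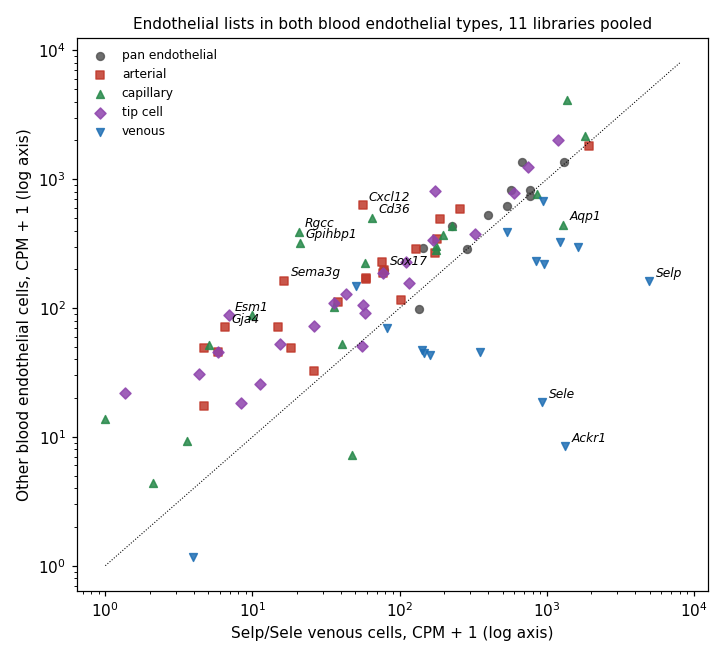
CPM + 1 of the genes of 5 lists in other blood endothelial cells (vertical, log axis) against the Selp/Sele venous cells (horizontal, log axis), UMIs of 11 libraries pooled, with no error bars because the pools are single values. The dotted line marks equal levels. Arterial and capillary genes lie mostly above the line (Rgcc 390.5 against 19.6 CPM) and venous genes below it (Selp 160.7 against 4975).

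Whether the day slope differed between the 2 blood endothelial types was tested in the 3 libraries with at least 20 cells of each (days 7, 11 and 18, all batch C), with library as a block, which leaves 1 residual degree of freedom. Of 8902 genes, 8 had a more positive slope in these cells (0.0899%) and 11 a more negative one (0.124%). Gbp2, an interferon-induced GTPase, had 349, 298 and 125 CPM here on days 7, 11 and 18, and 100.5, 125 and 321 in the venous cells. It thus went down in one type and up in the other, with a difference of slopes of -2.96 (edgeR adjusted p = 0.00601). Esm1 had 61.9, 79.8 and 99.6 CPM here and 0, 0 and 35.6 in the venous cells (difference -8.85, adjusted p = 0.0183), and the size of that last value rests on venous zeros. With all 9 DSS libraries, where venous cells number as few as 9, the differences for Gbp2 and Esm1 were -1.53 and -5.11 (adjusted p = 0.999 and 0.164), and 0 genes were positive and 3 negative of 3199 (0% and 0.0938%). In simulated data the 3-library test recovered 0% of slope differences of 2 and 35% of those of 4.

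Single cells were compared after thinning to 1000 UMIs, which left 851 cells and removed 139. At least 2 capillary genes were seen in 85.1% of cells (82.5% to 87.4%), against 89.3% of venous cells and 5.95% of fibroblasts. At least 2 tip cell genes were seen in 83.3% (80.6% to 85.8%), against 55.9% and 52.0%. At least 2 arterial genes were seen in 72.2% (69.0% to 75.1%), against 53.2% of venous cells and 79.4% of fibroblasts, so that share lies at or below background. The list holds matrix genes that fibroblasts make, such as Mgp, Eln and Fbln2. Without thinning the capillary, tip cell and arterial shares were 91.0%, 90.4% and 87.8%. Venous cells then had 96.1%, 84.5% and 86.1%, and fibroblasts 41.6%, 88.0% and 93.4%. The tip cell share thus lay near the fibroblast level when cells were not thinned.

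Single genes separated better. Gja5 was seen in 47 of 851 thinned cells (5.52%), in 0 of 299 venous cells and in 0 of 7241 fibroblasts. Of the 47 cells, 61.7% (46.4% to 75.5%) also had Sema3g, against 10.3% (8.31% to 12.6%) of cells without Gja5. Fbln5, a protein of elastic fibres, was seen in 63.8% against 12.4%, Clu, clusterin, in 74.5% against 24.1% and Stmn2 in 48.9% against 10.4%. Plvap went the other way, with 36.2% (22.7% to 51.5%) against 71.1%, as did Rgcc with 6.38% (1.34% to 17.5%) against 26.5%. Without thinning, Plvap was seen in 71.8% (62.7% to 79.7%) of 117 Gja5 cells against 78.8% (75.9% to 81.5%), so that the intervals overlap. Rgcc was then at 14.5% (8.70% to 22.2%) against 51.9%. The Gja5 cells were deeper, with a median of 6162 UMIs against 3349. Cells are not replicates, and these shares pool 11 libraries.

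**Figure D5:**
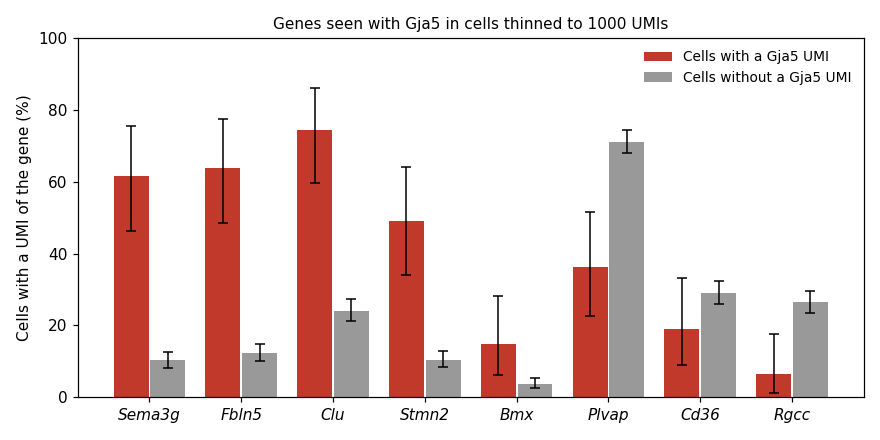
Percentage of other blood endothelial cells, thinned to 1000 UMIs each, with a UMI of 8 genes, for the 47 cells with a Gja5 UMI (red) and the cells without one (grey). Bars start at 0 and error bars are 95% exact binomial intervals for counting error. Sema3g (61.7% against 10.3%), Fbln5, Clu and Stmn2 are more frequent with Gja5, and Plvap and Rgcc less frequent.

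Cd36, seen in 242 of the thinned cells, went with Gpihbp1: 32.6% (26.8% to 38.9%) of Cd36 cells had it, against 14.8% (12.1% to 17.8%) of the rest. Apln was seen in 18 thinned cells, of which 8 had Trp53i11, a gene of the tip cell list (44.4%, 21.5% to 69.2%, against 8.52%). None of the 18 had Gja5, which allows a share of up to 18.5% (95% exact interval), and without thinning 0 of 48 Apln cells had it against 117 Gja5 cells in all. Esm1 was seen in 2 of the 18 (11.1%, 1.38% to 34.7%) against 6.36% of cells without Apln, a difference not detectable at this depth. Without thinning Esm1 was seen in 33.3% (20.4% to 48.4%) of 48 Apln cells against 12.0% (9.99% to 14.2%) of the others, but the Apln cells were deeper, with a median of 8367 UMIs against 3454.5.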

How the data were processed

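The authors deposited a matrix of unnormalized UMI counts, with Cell Ranger 3.0.0 and mm10 given in the submitters' processing notes. The deposited cell table gives each cell's library and type. The genes, lists and cells described were chosen with earlier results of these data known. Of 14 libraries in the cell table, 11 matched a sample, and 3 were not used. Rows with a placeholder name (0.558% of the UMIs) were left out.

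Counts were summed per library over the cells of the type and tested with edgeR 4.0.16 (TMM, filterByExpr, robust quasi-likelihood fit, Benjamini-Hochberg over all genes tested, called under 0.05) on day (slopes per 10 days) with the batch label as a covariate, over the 8 DSS libraries with at least 20 cells. The slope difference used sums per library and type with library as a block. Tests were run on simulated counts first. P-values measure the spread between single pooled libraries around a line. Shares carry exact Clopper-Pearson intervals (95%) and exact permutation tests, and ratios of counts exact intervals, with 0 set at 3 UMIs. Named genes were, by a fixed rule, the 12 largest slopes in each direction (6 for slope differences, 8 for ratios) among those called with a level at least that of all other cells, plus list members that were called or are markers. 1 gene chosen for its slope difference is not reported here. Promoters came from RefSeq tables, and gene positions from GENCODE models of mm10. Alternatives were DESeq2 1.42.0, other size factors, no count filter, no batch term, the rank of the day, single libraries left out, cells thinned to 1000 UMIs and, added after the data were seen, day 6 included and a narrower cell selection (at least 3 pan-endothelial genes, at most 2% neutrophil UMIs, at most 3 lymphatic genes).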

Additional observations from a re-analysis of the deposited data

Results flagged for a closer look

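Genes whose day slope differed by test between these cells and the venous cells in the 3 libraries of days 7, 11 and 18 were Gbp2 (difference -2.96 log2 units per 10 days, edgeR adjusted p = 0.00601) and Esm1 (-8.85, adjusted p = 0.0183). Neither passed with all 9 DSS libraries.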

How the results depend on the processing

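The day trend called 34 rising and 44 falling genes of 3187 tested. The number tested differed between settings, with 3044 in the narrower selection and 2156 without batch C. With no filter every gene with a UMI was tested. The counts here and in the next paragraph are therefore not shares of the same total. With DESeq2 the counts were 33 and 68, and with no filter on low counts 142 and 244. With no batch term they were 14 and 24, after thinning cells to 1000 UMIs 9 and 10, with day 6 included 25 and 22, in the narrower selection 19 and 12, without the batch C libraries 28 and 13, and with both of these restrictions 34 and 23. Leaving out 1 library gave 5 to 31 rising and 3 to 59 falling genes, with day 18 at the lowest of both, and counts over 1.5 times apart also without day 9 (19 rising), day 19 (22 rising), day 23 (17 rising, 20 falling), day 7 (25 falling) and day 11 (27 falling). The cause of these moves was not tested. Among the genes named, 215 of the settings tried gave the same call, 152 a weaker one and 3 the opposite sign. These 3 were slope differences between the types: without batch C, Esm1 was at 0.20 and Gbp2 at 0.51. Over all DSS libraries with 1 left out, Gbp2 ran from -2.42 (without day 6) to 0.089 (without day 18).

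The squared day term was called in 0 rising and 1 falling gene. With no filter the counts were 24 and 37, without batch C 1 and 4, in the narrower selection 1 and 2, with DESeq2 0 and 2, and with 1 library left out 0 to 6 and 1 to 7. The slope difference between types was called in 8 and 11 genes, in 9 and 20 with DESeq2 size factors, in 0 and 3 over all DSS libraries, in 0 and 0 without batch C, and in 0 to 2 and 0 to 4 over all DSS libraries with 1 left out. Its planned versions without 1 of the 3 libraries, and without batch C at 20 cells, could not be fitted because too few libraries remain.

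For the share of blood endothelial cells, rho was 0.80, 0.83 in the 6 libraries with no batch label, 0.40 there without the 2 farthest days and 0.71 to 0.86 with 1 library left out. Its adjusted p missed the threshold without any 1 of days 6, 7, 9, 11 and 23 (0.0559 to 0.115), in the 6 libraries and without the 2 farthest days (rho 0.79). For the share of all cells, rho was 0.20, 0.89 in those 6 libraries and -0.095 to 0.55 with 1 left out, negative without day 6.

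Against the DSS range 41 genes lay above and 128 below in the uninjured library. Against the 6 DSS libraries with no batch label these were 13 and 46. A gene outside the range of all DSS libraries is also outside that of these 6. The lower counts are therefore not lost calls, because fewer genes reach the count minimum without the deeper batch C libraries. In the Il10-/- library 51 genes were higher and 5 lower, 28 and 1 at a minimum of 50 counts, and 26 higher in the narrower selection. The genes compared differ between these settings too, so the counts are not shares of the same total. The shares of cells with arterial, capillary and tip cell genes were 52.6%, 74.1% and 64.9% for at least 3 genes, 86.2%, 94.7% and 92.8% at 2000 UMIs, and 87.8%, 91.0% and 90.4% without thinning. In fibroblasts these were 53.7%, 0.704% and 22.2%, then 92.6%, 15.1% and 81.3%, and last 93.4%, 41.6% and 88.0%. No paired analysis was possible because each group has 1 library. With 18 to 59 cells in the frozen libraries, a gene of few UMIs there has little weight.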

Other observations

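The summed level of 20 cell cycle genes ran from 1558 to 4800.3 CPM in the venous cells over the DSS days, with 1379 uninjured and 1088 in the Il10-/- library, and from 1123 to 1754 CPM in the other blood endothelial cells, with 1028 uninjured and 1053 in the Il10-/- library. It was higher in the venous cells in each of the 11 libraries, by little in the Il10-/- one, and the difference was not tested. Several venous sums rest on few cells, 4 in the uninjured library, 7 in the Il10-/- one and 9 on each of days 6, 16 and 23. Of 5 tested for a day trend in the other blood endothelial cells, none was called (1 at an unadjusted p under 0.05, edgeR). Birc5, a mitotic survival factor, had 1.32, 8.16 and 21.1 CPM here on days 7, 11 and 18 and 137, 42.1 and 19.2 in the venous cells, a slope difference of 5.83 (edgeR adjusted p = 0.0106). With all 9 DSS libraries the Birc5 difference was 3.29 and did not pass (edgeR adjusted p = 0.999). Madcam1, the gut homing receptor of venules, and Glycam1, a sulfated selectin ligand, differed in slope as well in the 3 libraries (5.12 and -14.4, adjusted p = 0.0422 and 0.000333), on 19 and 9 UMIs in these cells. With all 9 DSS libraries Madcam1 did not pass (4.41, edgeR adjusted p = 0.0567) and Glycam1 did (-13.2, adjusted p = 0.000421). Ngp, Camp and Ltf of neutrophil granules had differences of -22.0, -22.7 and -20.5. With all 9 DSS libraries Ngp passed (-21.4, edgeR adjusted p = 1.08e-07), and Camp and Ltf were not among the genes tested. These genes fell outside the naming rule and were chosen after their values were seen.

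Class I antigen presentation genes summed to 9476 CPM in the uninjured library and to 5709 to 12440 CPM over the DSS days, and 0 of 11 tested were called (1 at an unadjusted p under 0.05, edgeR). The interferon list summed to 7118 CPM uninjured, with 0 of 18 called (3 at an unadjusted p under 0.05, edgeR). Class II genes summed to 728 CPM uninjured, 216 to 1838 over the DSS days and 5930 in the Il10-/- library.

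Xist was found in the Il10-/- library also in fibroblasts (291 CPM) and lymphatic cells (329 CPM), and the Y-linked Ddx3y stood at 73.5 CPM in fibroblasts of that library, against 99.2 in the uninjured one.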
